A study of Mus musculus with 36 samples.

Results

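The 7 chemokine receptor genes described here are *Ccr1*, *Ccr2*, *Cx3cr1*, *Ccrl2*, *Cxcr4*, *Cxcr6* and *Cxcr3*. They were chosen by gene name, and each was found in the deposited count table, which lists 24781 genes. All 36 libraries of the series were used.

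Chemokine receptors are membrane proteins that signal through inhibitory G proteins and steer leukocytes along gradients of small secreted proteins, the chemokines. Monocytes leave the blood for tumours through CCR2 and mature there into macrophages, which in mice often lower CCR2 and, in some tissues, raise CX3CR1. Activated CD8+ T cells carry CXCR3, which guides them towards tissue with interferon-induced chemokines, and T cells that settle in tumours often carry CXCR6.

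The study grew MC38 tumours, a colon adenocarcinoma of C57BL/6 mice, in the skin and sorted cells from them on day 7. Each library was made from 100 sorted cells, either tumour-associated macrophages (TAMs, CD45+CD11b+F4/80 high) or CD8+ T cells (CD45+TCRβ+CD8+). Molecules were barcoded before amplification, so the deposited values count RNA molecules and not their copies. Within each cell type there were 3 groups of 6 libraries: WT mice, *muMt*-/- mice, and *muMt*-/- mice implanted with a pellet that slowly released GABA. The *muMt* mutation removes mature B cells from the whole animal from birth on, so it is no model of B cell loss in the tumour alone. The sample labels give no treatment for the WT and *muMt*-/- groups without GABA, whereas the paper describes both as placebo-treated. The labels call replicates independent library preparations, and by the paper each came from its own mouse.

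Comparison of *muMt*-/- with WT mice asks what changes without B cells, and comparison of GABA-treated with other *muMt*-/- mice asks whether GABA, which the study describes as a product of B cells, changes it back. The *muMt*-/- libraries serve in both comparisons and the WT libraries in the first and in GABA-treated against WT, so these comparisons are not independent of each other.

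Depth differed between the groups. The 6 TAM libraries of WT mice ranged from 206394 to 304100 molecules around a median of 242756, those of *muMt*-/- mice from 100254 to 253608 around 149960, and those with GABA from 151856 to 262606 around 192775. CD8+ libraries were smaller. They ranged from 22896 to 76898 around 42065.5 without the mutation, from 51064 to 77839 around 67121.5 with it, and from 65356 to 98015 around 80283 with GABA as well. A receptor with 10 molecules per 100000 was therefore counted about 2 to 10 times in a CD8+ library, and 1 molecule more or less weighed heavily there.

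The labelled cell types were checked against markers. All 16 macrophage markers were higher in TAMs and all 14 T cell markers were higher in CD8+ libraries, in each of the 3 groups (edgeR, adjusted p under 0.05). The T cell markers summed to 0 to 5.94 molecules per 100000 in the 18 TAM libraries, against 228 to 794 in CD8+ libraries. In the other direction the separation was less clean. Macrophage markers summed to 20.5 to 147 molecules per 100000 in CD8+ libraries of WT mice, 79.2 to 518 in those of *muMt*-/- mice and 33.3 to 334 in those of GABA-treated mice. As a share of the mean in WT TAMs, these sums averaged 3.35%, 12.1% and 11.2%. Their most abundant gene was *Ctsb* in all 3 groups, which T cells also express, and *Adgre1*, *Mertk* and *Mrc1* had no molecule in any CD8+ library of WT mice. In 3 CD8+ libraries the sum was above 20% of the mean in WT TAMs: replicate 1 of *muMt*-/- mice, at 32.5%, and replicates 1 and 3 of GABA-treated mice, at 20.9% and 20.8%. Log2 fold changes of the receptors that involve CD8+ cells are also given without these 3 libraries below, except those of *Cxcr6* and *Cxcr3* that rest on 1 to 6 molecules in TAMs. Among the B cell markers, *Cd79a*, *Pax5* and *Fcmr* had no molecule in any of the 36 libraries, while *Cd79b* and *Cd22* averaged 0.417 and 0.204 molecules per 100000 in WT TAMs.

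Of the 7 receptors, 5 passed the filter for testing within TAMs (a mean normalized number of molecules above 1), where *Cxcr3* and *Cxcr6* did not. All 7 passed it within CD8+ cells and in the fit to all 36 libraries.

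The difference between the cell types was the largest pattern in the receptors. Between TAMs and CD8+ cells of WT mice, 6 of 7 receptors differed at an adjusted p under 0.05 (22.7% of all 8477 genes tested did), 4 of them higher in TAMs and 2 lower. In *muMt*-/- mice the same 6 of 7 differed (21.4% of all genes), and in GABA-treated *muMt*-/- mice 5 of 7 did (22.0% of all genes). The 2 lower ones, *Cxcr6* and *Cxcr3*, had mean normalized numbers of 0.39 and 0.33 in TAMs. They passed the filter of this fit only through the CD8+ libraries, so their direction was nearly fixed beforehand. Of the 5 receptors tested within TAMs, 4, 4 and 3 were called in the 3 groups, all higher in TAMs. The median log2 fold change of TAMs over CD8+ cells was 2.73, 1.21 and 1.01 for the 7 receptors in these groups, against 0.36, 0.10 and 0.12 for all genes tested. Levels in the paragraphs that compare the cell types are molecules per 100000 molecules of the library. Means are followed by the SD over 6 libraries, and each fold change by its standard error (SE).

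*Ccr2*, the receptor for CCL2 that calls monocytes out of the bone marrow and into tissue, reached 83.1 ± 10.9 molecules per 100000 in WT TAMs, 146 ± 49.2 in *muMt*-/- TAMs and 95.4 ± 30.3 in TAMs of GABA-treated mice. In CD8+ libraries it had 11.2 ± 10.6, 26.3 ± 27.6 and 32.7 ± 25.3 in the same groups. Every TAM library of WT and of *muMt*-/- mice lay above every CD8+ library of its group, and 5 of 6 did in GABA-treated mice. The log2 fold change of TAMs over CD8+ cells was 3.19 ± 0.46 in WT (adjusted p = 1.32e-07), 2.70 ± 0.37 in *muMt*-/- (8.59e-08) and 1.64 ± 0.35 in GABA-treated mice (0.000268). Without CD8+ replicate 5 of WT mice it was 3.88 in WT, and without CD8+ replicate 1 of the group it was 3.53 in *muMt*-/- and 2.23 in GABA-treated mice.

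*Ccr1*, a receptor of myeloid cells for CCL3, CCL5 and related chemokines, averaged 41.2 ± 4.11 molecules per 100000 in WT TAMs, 58.9 ± 5.96 in *muMt*-/- TAMs and 51.1 ± 13.1 in TAMs of GABA-treated mice. CD8+ libraries had 3.45 ± 6.08, 14.7 ± 19.5 and 12.5 ± 11.1. CD8+ levels were uneven, with no molecule in 3 of 6 WT libraries and 2 of 6 GABA-treated libraries and 53.5 molecules per 100000 in replicate 1 of *muMt*-/- mice. It was higher in TAMs by a log2 fold change of 3.73 ± 0.59 in WT (adjusted p = 1.25e-06), 2.23 ± 0.41 in *muMt*-/- (2.73e-05) and 2.09 ± 0.40 in GABA-treated mice (5.55e-05). Without CD8+ replicate 1 of *muMt*-/- mice it was 3.28 there. In WT mice CD8+ replicate 5 held most of the 10 molecules, so no fold change is given without it.

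*Cx3cr1*, the receptor for fractalkine, marks many tissue macrophages and also a subset of effector T cells. It averaged 21.5 ± 4.11 molecules per 100000 in WT TAMs, 12.5 ± 6.59 in *muMt*-/- TAMs and 13.6 ± 6.57 in TAMs of GABA-treated mice, against 2.41 ± 2.74, 5.88 ± 4.86 and 7.59 ± 5.91 in CD8+ cells. The cell types were fully apart in WT mice and overlapped in the other groups. Its log2 fold change of TAMs over CD8+ cells was 3.49 ± 0.57 in WT (adjusted p = 2.34e-06), 1.32 ± 0.46 in *muMt*-/- (0.0303) and 1.01 ± 0.39 in GABA-treated mice, which missed the threshold (0.0573). The call in *muMt*-/- mice was kept in 5 of 12 fits without 1 library of the groups compared. It was lost without TAM replicate 1 or 6 or without CD8+ replicate 1, 2, 3, 5 or 6, with log2 fold changes of 1.11 to 1.30 and adjusted p of 0.0565 to 0.0848. Over the other alternatives adjusted p ran from 0.00236 to 0.0882, and over all fits without 1 library from 0.00754, which was without CD8+ replicate 4 (log2 fold change 1.77). In GABA-treated mice it passed without TAM replicate 4, 5 or 6 or CD8+ replicate 2 or 3, at 1.12 to 1.39 (adjusted p of 0.0171 to 0.0374, and up to 0.171 without others), and the other alternatives gave 0.0105 to 0.122.

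*Ccrl2* is an atypical member of the family that binds the chemoattractant chemerin and presents it to other cells without G protein signalling of its own. It averaged 16.1 ± 4.62 molecules per 100000 in WT TAMs and 2.04 ± 2.67 in WT CD8+ cells, a log2 fold change of 2.73 ± 0.62 (adjusted p = 0.000487). CD8+ replicate 6 held 5 of the 8 molecules in WT CD8+ cells, and without it the difference was larger (adjusted p = 0.000435), with 3 molecules left and no fold given. In *muMt*-/- mice the means were 19.96 ± 3.85 and 10.3 ± 16.7 (1.21 ± 0.42, adjusted p = 0.0308), and in GABA-treated mice 14.8 ± 3.72 and 4.81 ± 4.78 (1.70 ± 0.47, adjusted p = 0.0051). The spread in CD8+ cells of *muMt*-/- mice came from replicate 1, with 44.1 molecules per 100000, more than any TAM library held. The call in *muMt*-/- mice was kept in 6 of 12 fits without 1 library, and was lost without TAM replicate 3 or any of CD8+ replicates 2 to 6, at log2 fold changes of 0.95 to 1.12 and adjusted p of 0.0699 to 0.114. Without CD8+ replicate 1 the log2 fold change rose to 2.71 (adjusted p = 1.44e-06). Over the other alternatives adjusted p ran from 5.35e-07 to 0.0834.

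*Cxcr6*, the receptor for the membrane-bound chemokine CXCL16, was the clearest receptor of the CD8+ cells, with 38.4 ± 18.4 molecules per 100000 in WT, 37.3 ± 16.2 in *muMt*-/- and 30.4 ± 3.38 in GABA-treated mice. In TAMs 5 of 6 libraries of each group had no molecule of it. The 6 libraries of a group together held 6, 1 and 1 molecules in TAMs and 101, 153 and 147 in CD8+ cells. Per molecule sequenced this was 94.0 times as much in CD8+ cells of WT mice (95% counting interval 41.7 to 262), 374 times in *muMt*-/- mice (66.2 to 14880) and 364 times in GABA-treated mice (64.3 to 14460). These intervals cover counting error only, and the TAM molecules of each group were all in 1 library. The test, whose filter it passed only through the CD8+ libraries, called it lower in TAMs in each group, with adjusted p of 2.05e-14, 2.19e-14 and 7.02e-15.

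*Cxcr3*, the receptor for the interferon-induced chemokines CXCL9 and CXCL10, was rare in both cell types. Summed over 6 libraries, CD8+ cells held 15 molecules in WT, 13 in *muMt*-/- and 16 in GABA-treated mice, and TAMs held 2, 1 and 3. The ratio of CD8+ cells to TAMs per molecule sequenced was 41.9 in WT (95% counting interval 9.74 to 378), 31.8 in *muMt*-/- (4.78 to 1352) and 13.2 in GABA-treated mice (3.78 to 70.7). Each group was called (adjusted p = 2.2e-05, 0.00126 and 0.00122), again by a test whose filter it passed only through the CD8+ libraries. With 0 to 6 molecules per CD8+ library its level in any one mouse was poorly known.

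*Cxcr4*, the receptor for CXCL12 that both lineages carry, was called between the cell types by edgeR in none of the groups. CD8+ cells had 25.5 ± 6.99, 15.1 ± 6.44 and 19.4 ± 7.68 molecules per 100000 in WT, *muMt*-/- and GABA-treated mice, and TAMs had 11.5 ± 1.93, 20.03 ± 11.4 and 12.2 ± 2.95. In WT mice every TAM library lay below every CD8+ library. The log2 fold change of TAMs over CD8+ cells was -0.75 ± 0.31 in WT (adjusted p = 0.0713), 0.57 ± 0.30 in *muMt*-/- (0.179) and -0.50 ± 0.28 in GABA-treated mice (0.226). DESeq2 called it in WT mice (adjusted p = 0.0211), so that all 7 receptors were called there (1666 of all 8477 genes). In *muMt*-/- mice DESeq2 called 5 of 7, without *Ccrl2* (1741 of all genes), and in GABA-treated mice the same 5 as edgeR (1773 of all genes). In WT mice edgeR called *Cxcr4* without CD8+ replicate 6 of WT mice (-0.86, adjusted p = 0.0499). Adjusted p ran from 0.0499 to 0.128 over fits without 1 library and from 0.0064 to 0.137 over the other alternatives.

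Ordered by mean level over the 6 groups, neighbouring groups overlapped for every receptor but *Cxcr6*, for which the lowest CD8+ group (25.2 to 34.0 molecules per 100000 in GABA-treated mice) lay wholly above the highest TAM group (0 to 2.55 in WT mice). For *Ccr1*, *Ccr2*, *Cx3cr1* and *Ccrl2* all 3 TAM groups ranked above all 3 CD8+ groups by their means, and for *Cxcr6* and *Cxcr3* all 3 CD8+ groups ranked above all 3 TAM groups. For *Cxcr4* the order was CD8+ of WT, TAMs of *muMt*-/-, CD8+ of GABA-treated and of *muMt*-/-, then TAMs of GABA-treated and of WT mice.

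**Figure D1:**
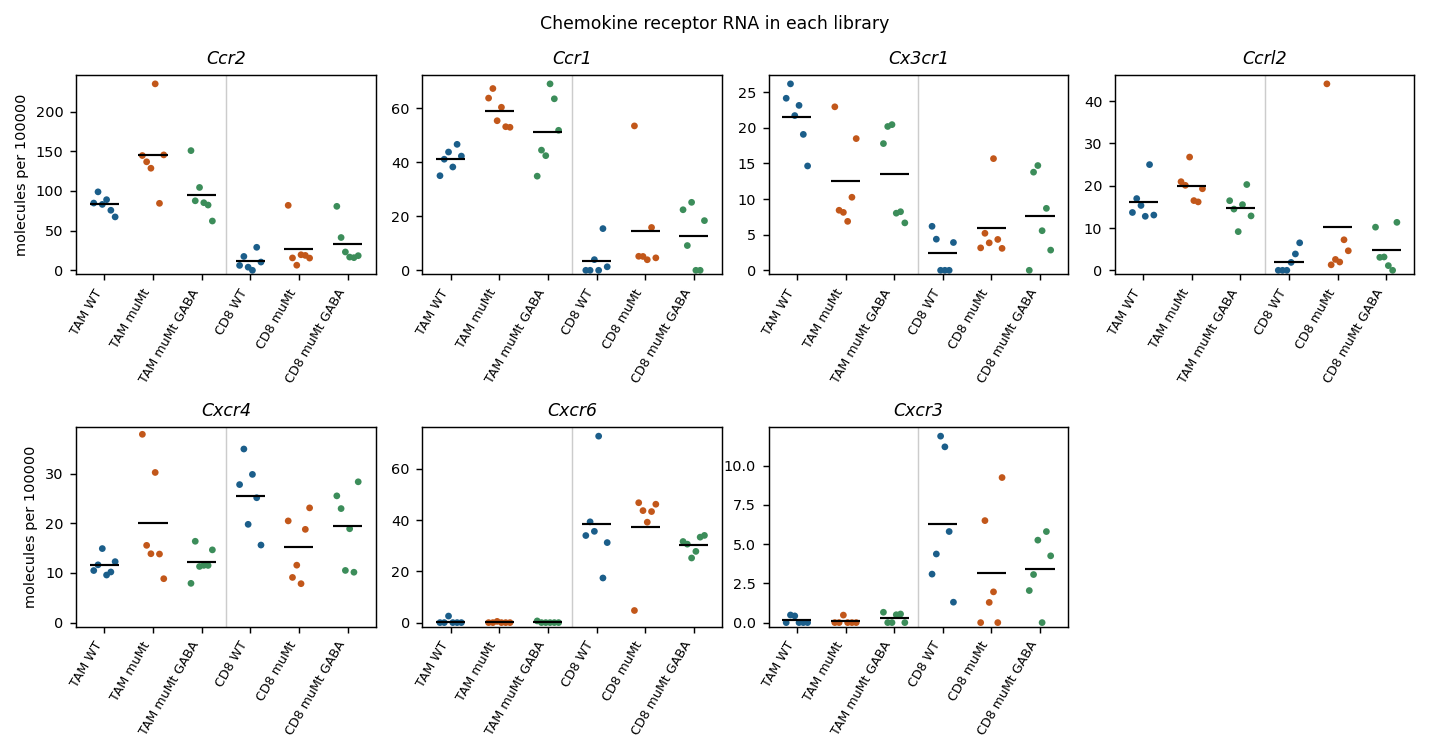
Molecules of each receptor per 100000 molecules of the library (vertical axis, from 0) in each of the 36 libraries, by cell type and group. Points are libraries and the black lines are the means of 6. *Ccr2* in *muMt*-/- TAMs averages 146 against 83.1 in WT TAMs, and *Cxcr6* is at 0 in 15 of 18 TAM libraries.

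Within TAMs, levels are given as normalized numbers of molecules, which are counts divided by DESeq2 size factors over the 18 TAM libraries. Without B cells, 1 of 5 receptors tested, *Ccr2*, passed an adjusted p of 0.05 in TAMs (2.05% of all 9469 genes tested did). At an unadjusted p under 0.05 there were 4 of 5 (14.9% of all genes), and DESeq2's adjusted test called *Ccr1* and *Ccr2* (192 of all genes). The 5 receptors had a median log2 fold change of 0.54, against -0.05 over all genes tested, with 4 higher and 1 lower. A sorted pool of 100 cells gives 1 value, so fewer cells that carry a receptor and less of its RNA in each cell cannot be told apart.

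*Ccr2* had 124 to 188 normalized molecules in WT TAMs (median 156) and 168 to 477 in *muMt*-/- TAMs (median 268). In 5 of 6 *muMt*-/- libraries it exceeded every WT library, and replicate 5 alone fell inside the WT range. Replicate 4 stood apart at 477, while the other *muMt*-/- libraries had 281 or less. This was a log2 fold change of 0.84 ± 0.19 (95% interval 0.46 to 1.22, adjusted p = 0.0106). Without replicate 4 of the *muMt*-/- group it was 0.64 and no longer passed (adjusted p = 0.0674). Without any other library it passed, with adjusted p from 0.00333, and over the other alternatives adjusted p ran from 0.000193 to 0.0132.

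*Ccr1* had 65.7 to 89.1 normalized molecules in WT TAMs (median 78.1) and 103 to 129 in *muMt*-/- TAMs (median 114). The groups did not overlap, with all 6 *muMt*-/- libraries above all 6 WT libraries. Its log2 fold change of 0.54 ± 0.15 was smaller than that of *Ccr2* and just missed the threshold (adjusted p = 0.051). DESeq2's adjusted test called it (adjusted p = 0.0112), as did edgeR with DESeq2's size factors (0.0338) or without replicate 5 of WT mice (0.59, adjusted p = 0.0475). Adjusted p ran from 0.0475 to 0.135 over fits without 1 library and from 0.0112 to 0.0843 over the other alternatives.

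*Cxcr4* had 17.4 to 27.6 normalized molecules in WT TAMs (median 20.9) and 17.1 to 71.6 in *muMt*-/- TAMs (median 28.6). Only replicates 1 and 4 of the *muMt*-/- group were far above the WT range, at 71.6 and 61.4, and the other 4 lay between 17.1 and 29.9. The fit gave a log2 fold change of 0.77 ± 0.24 (adjusted p = 0.0784). It passed without replicate 6 of the *muMt*-/- group, the lowest (0.91, adjusted p = 0.0299). Without other libraries adjusted p went up to 0.28, and over the other alternatives it ran from 0.0215 to 0.101.

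*Cx3cr1* went the other way, with 26.9 to 49.8 normalized molecules in WT TAMs (median 41.2) and 13.95 to 43.3 in *muMt*-/- TAMs (median 18.3). Replicates 1 and 6 of the *muMt*-/- group, at 43.3 and 35.7, stayed within the WT range, and the other 4 lay below every WT library. Fitted over all libraries, the log2 fold change was -0.82 ± 0.26 (adjusted p = 0.0883), and without replicate 1 of the *muMt*-/- group it was -1.02 and passed (adjusted p = 0.0467). Without other libraries adjusted p went up to 0.234, and the other alternatives gave 0.0049 to 0.196. *Ccrl2*, at 23.3 to 47.7 normalized molecules in WT (median 27.0) and 32.1 to 51.6 in *muMt*-/- TAMs (median 37.9), overlapped widely (0.33 ± 0.20, adjusted p = 0.457).

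Values of other lists are given beside these. The sum of 5 nuclear RNAs, most of it *Malat1*, was 318 to 390 molecules per 100000 in WT TAMs, 469 to 1047 in *muMt*-/- TAMs and 349 to 534 in those of GABA-treated mice. It was highest in replicate 4 of the *muMt*-/- group, which also held the most *Ccr2*. Between *muMt*-/- and WT TAMs, 2 of the 3 nuclear RNAs tested were called, *Malat1* (log2 fold change 0.82, adjusted p = 0.00385) and *Neat1* (1.22, adjusted p = 8.6e-05). Monocyte markers summed to 61.0 to 124 molecules per 100000 in WT TAMs, 65.5 to 193 in *muMt*-/- TAMs and 55.3 to 162 in those of GABA-treated mice. In *muMt*-/- TAMs they were highest in replicates 2, 3 and 6 (184 to 193), and replicate 4 had 92.0. Their most abundant gene, *Plac8*, was the only one of 5 tested to be called in *muMt*-/- against WT TAMs (0.90, adjusted p = 0.0485), with all 5 above 0, and DESeq2's adjusted test did not call it. Among the 16 macrophage markers *C1qb*, *C1qc* and *Lyz2* were called lower (-0.62, -0.57 and -0.74) and *Itgam* higher (0.66) in the same comparison. The part of nuclear RNA, of monocyte RNA and of depth in the receptor results was not tested.

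Markers of 4 further kinds of leukocyte were low in TAMs. Neutrophil markers summed to 2.73 to 19.4 molecules per 100000 over the 18 TAM libraries, dendritic cell markers to 0.399 to 7.65 and NK cell markers to 0 to 1.18. The 8 B cell markers summed to 0.478 to 8.98, most of it *Blnk*, which macrophages also express. Tumour and stroma markers varied most between libraries, from 7.23 to 493, with *Col3a1* as the most abundant gene, and edgeR and DESeq2 each called 0 genes of these 5 lists between the TAM groups, with 3, 1 and 2 genes at an unadjusted p under 0.05.

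With the GABA pellet, 0 of 5 receptors tested were called by edgeR in TAMs against *muMt*-/- mice (0.0211% of all genes tested were, 2 genes). At an unadjusted p under 0.05 there were 3 of 5 (8.46% of all genes), and DESeq2's adjusted test called 0 as well. The median log2 fold change of the 5 was -0.46, against 0.06 over all genes. Against WT mice 0 of 5 were called by edgeR (0.0739% of all genes, 7 genes) and 0 by DESeq2's adjusted test, with 2 of 5 at an unadjusted p under 0.05 (7.02% of all genes) and a median of 0.13, against 0.02 over all genes.

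*Ccr2* had 116 to 304 normalized molecules in TAMs of GABA-treated mice (median 161). It was close to the WT median of 156, and 4 of 6 libraries lay below every *muMt*-/- library, whereas replicate 1 stood highest at 304. The fit gave -0.63 ± 0.19 (log2) against *muMt*-/- (adjusted p = 0.259) and 0.21 ± 0.19 against WT TAMs (adjusted p = 0.872). Without replicate 1 of the GABA-treated group it was -0.81 against *muMt*-/- and passed the threshold (adjusted p = 0.0214). Without any other library it did not pass (adjusted p up to 0.624), and the other alternatives gave adjusted p from 0.0423 to 0.405. Replicate 1 also had the most nuclear RNA of its group, 534 molecules per 100000 (349 to 452 in the others), and the lowest macrophage marker sum of all TAM libraries, 954. In GABA-treated against *muMt*-/- TAMs *Malat1* and *Neat1* had log2 fold changes of -0.66 (adjusted p = 0.139) and -0.70 (adjusted p = 0.132). Their part in the *Ccr2* result was not tested.

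*Cxcr4* had 15.9 to 31.0 normalized molecules in TAMs of GABA-treated mice (median 21.2), with no library near the 2 high ones of the *muMt*-/- group. It differed by a log2 fold change of -0.64 ± 0.24 from *muMt*-/- (adjusted p = 0.393) and of 0.13 ± 0.24 from WT TAMs (adjusted p = 0.947). *Ccrl2* had 17.3 to 37.3 (median 27.9), and 4 of 6 libraries lay below every *muMt*-/- library (-0.46 ± 0.21 against *muMt*-/-, adjusted p = 0.546, and -0.13 ± 0.20 against WT, adjusted p = 0.94).

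The GABA-treated group was uneven in *Cx3cr1* and *Ccr1*. *Cx3cr1* had 35.8, 38.2 and 38.6 normalized molecules in replicates 1 to 3 and 14.7, 15.1 and 12.5 in replicates 4 to 6. *Ccr1* had 70.4, 84.4 and 80.3 in replicates 1 to 3 and 126, 117 and 97.2 in replicates 4 to 6. Replicates 1 to 3 lay within the WT range in both genes. Replicates 4 to 6 lay below every WT library in *Cx3cr1* and above every WT library in *Ccr1*, where replicate 6 was still below every *muMt*-/- library. The labels give no batch or date for these replicates. Over the whole group the log2 fold change of *Cx3cr1* was 0.19 ± 0.28 against *muMt*-/- (adjusted p = 0.907) and -0.64 ± 0.25 against WT TAMs (adjusted p = 0.562), and that of *Ccr1* was -0.22 ± 0.15 (adjusted p = 0.746) and 0.32 ± 0.15 (adjusted p = 0.699).

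**Figure D2:**
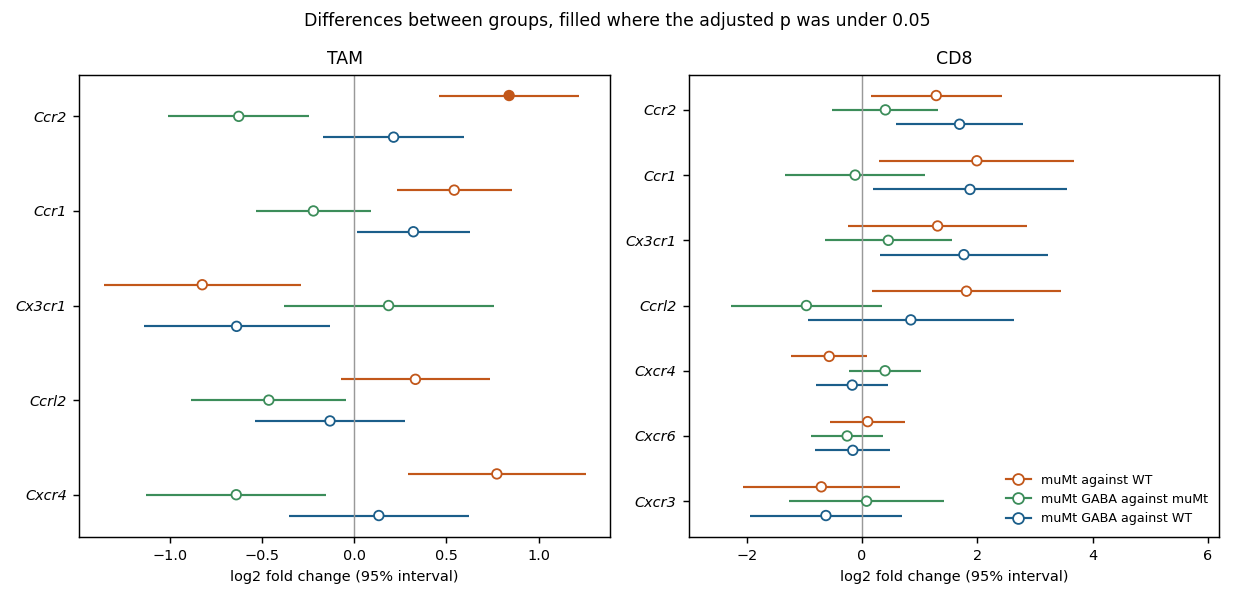
Fitted log2 fold changes of the receptors tested (horizontal axis) with 95% intervals for 3 comparisons within TAMs (left) and within CD8+ cells (right). Filled points have an adjusted p under 0.05 in edgeR, which only *Ccr2* in *muMt*-/- against WT TAMs reached, at 0.84. For each of the 5 receptors tested in both cell types, the intervals are wider in CD8+ cells.

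Within CD8+ cells, normalized numbers are counts divided by size factors over the 18 CD8+ libraries and are not on the scale of the TAM values. Against WT mice, 0 of 7 receptors were called by edgeR in *muMt*-/- mice (0% of all 6663 genes tested) and 3 of 7 reached an unadjusted p under 0.05 (6.17% of all genes). In GABA-treated against *muMt*-/- mice it was 0 of 7 (0% of all genes), and 0 of 7 at an unadjusted p under 0.05 (3.71% of all genes). In GABA-treated against WT mice it was 0 of 7 (0% of all genes), with 3 of 7 at an unadjusted p under 0.05 (6.89% of all genes). DESeq2's adjusted test called 0 receptors in each of these comparisons. The medians of the 7 log2 fold changes were 1.29, 0.08 and 0.85, against 0.15, 0.03 and 0.21 over all genes.

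The receptors of T cells come first. *Cxcr6* had 10.3 to 40.2 normalized molecules in CD8+ cells of WT mice (median 20.03), 3.03 to 26.8 in *muMt*-/- (median 24.8) and 14.9 to 19.7 in GABA-treated mice (median 18.1). The groups overlapped, and the lowest value of all was replicate 1 of *muMt*-/- mice, the library with the most macrophage RNA and the fewest T cell marker molecules (228 per 100000). Fitted log2 fold changes were 0.10 ± 0.32 for *muMt*-/- against WT (95% interval -0.55 to 0.75, adjusted p = 0.998), -0.26 ± 0.31 for GABA-treated against *muMt*-/- (adjusted p = 0.999) and -0.16 ± 0.32 for GABA-treated against WT (adjusted p = 0.951). The direction for *muMt*-/- against WT turned to -0.03 with DESeq2's size factors or with total molecules as library size.

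*Cxcr3* had 0.751 to 6.63 normalized molecules in WT (median 2.92), 0 to 4.996 in *muMt*-/- (median 0.942) and 0 to 3.12 in GABA-treated mice (median 2.10). These are 0 to 6 molecules per library, at which a difference would have had to be large to be detected. Fitted values were a log2 fold change of -0.71 ± 0.67 for *muMt*-/- against WT, with a 95% interval from -2.07 to 0.66 (adjusted p = 0.955), 0.08 ± 0.66 for GABA-treated against *muMt*-/- (adjusted p = 0.999) and -0.63 ± 0.65 for GABA-treated against WT mice (adjusted p = 0.902).

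*Cxcr4* had 9.01 to 19.2 normalized molecules in WT CD8+ cells (median 15.7), 4.49 to 13.2 in *muMt*-/- (median 8.75) and 5.47 to 15.9 in GABA-treated mice (median 12.1). In 3 of 6 *muMt*-/- libraries it lay below every WT library. The log2 fold change was -0.57 ± 0.33 for *muMt*-/- against WT (adjusted p = 0.85), 0.40 ± 0.31 for GABA-treated against *muMt*-/- (adjusted p = 0.999) and -0.17 ± 0.31 for GABA-treated against WT (adjusted p = 0.946).

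The myeloid receptors *Ccr2* and *Ccr1* were low in most CD8+ libraries and high in a few. *Ccr2* had 0 to 17.2 normalized molecules in WT (median 4.84), 3.81 to 52.6 in *muMt*-/- (median 9.77) and 8.59 to 50.2 in GABA-treated mice (median 11.9). Replicate 1 of *muMt*-/- mice and replicate 1 of GABA-treated mice gave the 2 high values. Its log2 fold change was 1.29 ± 0.56 for *muMt*-/- against WT (adjusted p = 0.715, and 0.50 without replicate 1 of *muMt*-/- or 1.95 without replicate 5 of WT mice), 0.41 ± 0.45 for GABA-treated against *muMt*-/- (adjusted p = 0.999, and -0.19 without replicate 1 of GABA-treated or 1.196 without replicate 1 of *muMt*-/- mice) and 1.69 ± 0.54 for GABA-treated against WT (adjusted p = 0.458, and 1.07 without replicate 1 of GABA-treated or 2.36 without replicate 5 of WT mice).

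*Ccr1* had 0 to 9.15 normalized molecules in WT CD8+ cells (median 0.376), 2.24 to 34.4 in *muMt*-/- (median 3.01) and 0 to 14.9 in GABA-treated mice (median 7.87). The highest libraries were replicate 1 of *muMt*-/- and replicates 1 and 3 of GABA-treated mice, which are the 3 with most macrophage RNA. Its log2 fold change was 1.99 ± 0.83 (adjusted p = 0.686, and 0.96 without replicate 1 of that group) for *muMt*-/- and 1.87 ± 0.83 (adjusted p = 0.646) for GABA-treated mice, each against WT, and -0.12 ± 0.60 (adjusted p = 0.999, and 0.91 without replicate 1 of *muMt*-/- mice) for GABA-treated against *muMt*-/- mice. Without replicate 5 of WT mice, which held 8 of the 10 WT molecules, both folds against WT rose (adjusted p = 0.215 and 0.3), and with 2 molecules left no fold is given.

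*Ccrl2* had 0 to 3.76 normalized molecules in WT (median 0.516), 0.743 to 28.3 in *muMt*-/- (median 2.01) and 0 to 6.36 in GABA-treated mice (median 1.84). Replicate 1 of *muMt*-/- mice was again the high one. The log2 fold change was 1.81 ± 0.81 for *muMt*-/- against WT (adjusted p = 0.728, and 0.35 without that library), -0.97 ± 0.64 for GABA-treated against *muMt*-/- (adjusted p = 0.999, and 0.50 without that library) and 0.85 ± 0.88 for GABA-treated against WT (adjusted p = 0.903). Without replicate 6 of WT mice, which held 5 of the 8 WT molecules, both folds against WT rose (adjusted p = 0.51 and 0.672). *Cx3cr1* had 0 to 3.67 (median 1.13), 1.67 to 8.97 (median 2.37) and 0 to 8.68 (median 3.89) in the same order of groups. Unlike the other 3, it was not high in replicate 1 of either group, with 2.02 in *muMt*-/- and 0 in GABA-treated mice. Its log2 fold change was 1.31 ± 0.77 (adjusted p = 0.858), 0.46 ± 0.54 (adjusted p = 0.999) and 1.77 ± 0.72 (adjusted p = 0.61) in these comparisons.

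As a percentage of the mean in WT TAMs, the CD8+ library of *muMt*-/- replicate 1 had 32.5% of the macrophage marker sum, 98.5% of *Ccr2*, 130% of *Ccr1* and 273% of *Ccrl2*. Replicate 1 of GABA-treated mice had 20.9% of the marker sum and 97.0% of *Ccr2*, whereas replicate 3 of the same group had 20.8% of the marker sum and 27.8% of *Ccr2*. Between *muMt*-/- and WT mice, all 13 macrophage markers tested in CD8+ cells were above 0, with a median log2 fold change of 2.23, and between GABA-treated and WT mice all 13 were too, with a median of 2.35, though 0 passed the adjusted threshold of edgeR or DESeq2 in either and 11 of 13 had an unadjusted p under 0.05 in each. Without the 3 libraries above 20%, 0 of 7 receptors were called in any comparison within CD8+ cells. The log2 fold changes for *muMt*-/- against WT were then 0.91 for *Ccr1*, 0.44 for *Ccr2*, 0.30 for *Ccrl2* and 1.37 for *Cx3cr1*, and for GABA-treated against WT mice 0.81, 1.04, 0.39 and 1.69. In the same 2 comparisons *Cxcr3*, *Cxcr4* and *Cxcr6* had -0.52, -0.72 and 0.27, and -0.81, -0.22 and -0.22. GABA-treated against *muMt*-/- mice gave -0.10 for *Ccr1*, 0.61 for *Ccr2*, 0.088 for *Ccrl2*, 0.32 for *Cx3cr1*, -0.29 for *Cxcr3*, 0.50 for *Cxcr4* and -0.49 for *Cxcr6*. TAMs over CD8+ cells without these libraries had the same receptors called in each group. For *Ccr1*, *Ccr2*, *Ccrl2*, *Cx3cr1* and *Cxcr4* the values were 3.28, 3.53, 2.71, 1.22 and 0.68 in *muMt*-/- mice and 3.11, 2.24, 2.11, 1.02 and -0.52 in GABA-treated mice. The choice of these 3 libraries was made after seeing the data. The part of macrophage RNA in what remained was not tested.

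**Figure D3:**
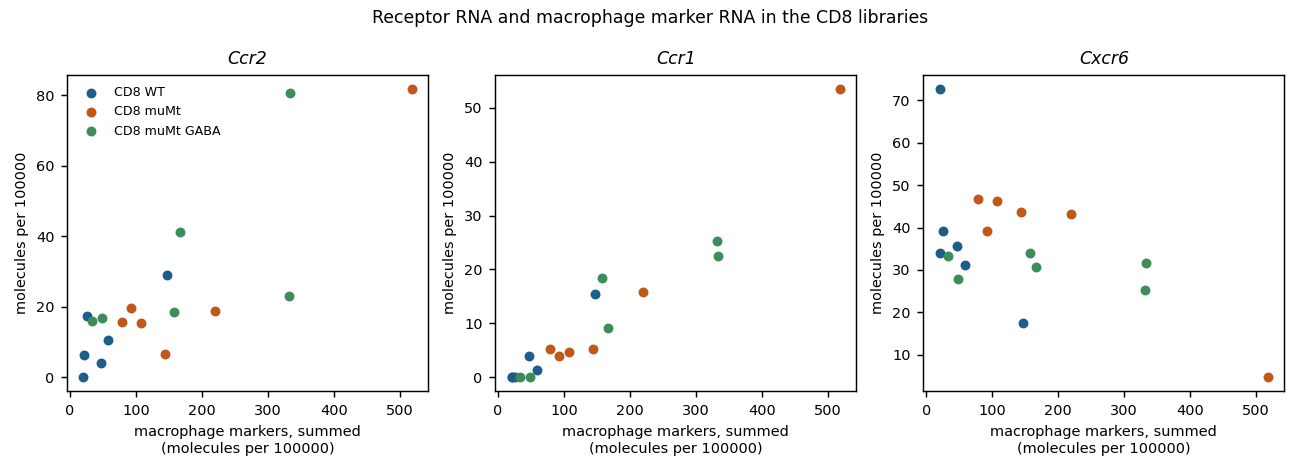
Molecules of *Ccr2*, *Ccr1* and *Cxcr6* per 100000 molecules (vertical axes) against the sum of 16 macrophage markers per 100000 molecules (horizontal axes) in the 18 CD8+ libraries, coloured by group. The library with the largest marker sum, 518, has 53.5 of *Ccr1*, 81.9 of *Ccr2* and 4.72 of *Cxcr6*.

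Markers of other cells were also counted in the CD8+ libraries. Neutrophil markers summed to 0 to 29.9 molecules per 100000, NK cell markers to 3.15 to 19.9 and B cell markers to 0 to 7.87. The neutrophil sum was 29.9 in replicate 1 of *muMt*-/-, 24.7 in replicate 6 of WT, and 15.6 and 13.3 in replicates 6 and 1 of GABA-treated mice. *Ccrl2* had 44.1, 6.50, 11.3 and 10.2 molecules per 100000 in the same libraries. All others had at most 9.09 of the neutrophil markers and 7.22 of *Ccrl2*. The part of neutrophil RNA in *Ccrl2* was not tested. Dendritic cell markers summed to 11.2 to 55.4, nearly all of it *Ccr7*, which CD8+ T cells express. Monocyte markers summed to 87.1 to 252. Their most abundant genes were *Ly6c2*, also a gene of CD8+ T cells, with means of 89.0, 85.1 and 82.9 in WT, *muMt*-/- and GABA-treated mice, and *Plac8*, with 39.5, 73.4 and 76.8. Against WT, *Plac8* had log2 fold changes of 1.01 in *muMt*-/- (adjusted p = 0.319) and 1.13 in GABA-treated mice (adjusted p = 0.273). *F13a1* and *Chil3* averaged 0 and 0.861 in WT, 3.89 and 4.85 in *muMt*-/- and 1.78 and 4.35 in GABA-treated mice. Tumour and stroma markers summed to 1.54 to 109 molecules per 100000, most of it *Col3a1*, with the highest sum in replicate 3 of *muMt*-/- mice. Nuclear RNA summed to 206 to 573, with the highest sum in replicate 1 of *muMt*-/- mice. Its part in the receptor results was not tested.

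Whether the receptors responded differently in the 2 cell types was tested directly, as the change in TAMs minus the change in CD8+ cells. For *muMt*-/- against WT, 0 of 7 receptors were called by edgeR (0.0118% of all genes, 1 gene) and 0 by DESeq2, with 2 of 7 at an unadjusted p under 0.05 (10.1% of all genes). They were *Cxcr4* at 1.32 ± 0.43 (adjusted p = 0.256), which was higher in TAMs and lower in CD8+ cells of *muMt*-/- mice, and *Cx3cr1* at -2.18 ± 0.85 (adjusted p = 0.366), with the opposite directions. For GABA-treated against *muMt*-/- mice, 0 of 7 were called by edgeR (0% of all genes) and 0 by DESeq2, and 2 of 7 had an unadjusted p under 0.05 (4.53% of all genes). These were *Cxcr4* at -1.07 ± 0.41 and *Ccr2* at -1.06 ± 0.51 (adjusted p = 0.994 for both). For *Ccr2* it was -1.89 without CD8+ replicate 1 of *muMt*-/- and -0.48 without CD8+ replicate 1 of GABA-treated mice. The medians of the 7 differences were -1.47 and -0.14, against -0.30 and 0.01 over all genes. *Cxcr6* and *Cxcr3*, with 1 to 6 molecules per TAM group, take part in these medians with fitted values of little weight, and over the other 5 receptors the medians were -1.50 and -0.31. Macrophage markers had medians of -2.42 and -0.21 in the same tests, with all 16 below 0 and 12 of 16 at an unadjusted p under 0.05 in the first, and 0 called in either by edgeR or DESeq2. Without the 3 CD8+ libraries with most macrophage RNA, the differences of *Ccr1*, *Ccr2*, *Ccrl2*, *Cx3cr1* and *Cxcr4* were -0.45, 0.34, -0.0147, -2.28 and 1.43 for *muMt*-/- against WT and -0.17, -1.29, -0.60, -0.20 and -1.20 for GABA-treated against *muMt*-/- mice. The part of macrophage RNA in these differences was not tested. A difference between TAMs and CD8+ cells in the response of any receptor was thus not shown.

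The ligands of these receptors, 17 genes, had 0 called between groups within TAMs (16 tested) by edgeR, and 0 by DESeq2, with 6 of 16 at an unadjusted p under 0.05 in *muMt*-/- against WT, 3 in GABA-treated against *muMt*-/- and 7 in GABA-treated against WT TAMs (14.9%, 8.46% and 7.02% of all genes). The median log2 fold changes were -0.28, 0.01 and -0.30. Of the most abundant, *Cxcl9*, a ligand of CXCR3, had 292 ± 53.9 normalized molecules in WT and 240 ± 57.2 in *muMt*-/- TAMs (-0.29, adjusted p = 0.57). *Cxcl10*, another, had 174 ± 58.5 and 108 ± 37.0 (-0.68, adjusted p = 0.143), and *Ccl2*, the chief ligand of CCR2, had 166 ± 57.3 and 114 ± 23.3 (-0.54, adjusted p = 0.19). *Cxcl16*, the ligand of CXCR6, had 105 ± 12.1 and 87.8 ± 19.1 (-0.28, adjusted p = 0.473).

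Some ligands were higher in the same cell type as their receptor and some in the other. *Cxcl9*, *Cxcl10* and *Cxcl16* were called higher in TAMs in all 3 groups, as were *Ccl2*, *Ccl7*, *Ccl8*, *Ccl12* and *Pf4*. The receptors *Cxcr3* and *Cxcr6* were higher in CD8+ cells, whereas *Ccr2*, whose ligands include the products of *Ccl2*, *Ccl7*, *Ccl8* and *Ccl12*, was higher in TAMs as well. In WT mice *Cxcl9* had 156 ± 28.1 molecules per 100000 in TAMs and 18.1 ± 9.5 in CD8+ cells (log2 fold change 3.42, adjusted p = 4.62e-12), and *Cxcl16* had 56.1 ± 6.05 and 3.13 ± 5.32 (4.32, adjusted p = 1.78e-11). In the other direction *Ccl3*, a ligand of CCR1, and *Ccl4* were lower in TAMs in all 3 groups. *Ccl3* had 14.7 ± 6.99 molecules per 100000 in WT TAMs and 231 ± 74.3 in WT CD8+ cells (-3.63, adjusted p = 4.91e-13), and *Ccl4* had 24.0 ± 10.2 and 348 ± 126 (-3.46, adjusted p = 3.08e-10). *Ccl5*, a further ligand of CCR1, was lower in TAMs in WT (-2.18) and in GABA-treated mice (-2.47) and was not called in *muMt*-/- mice. *Ccl6* and *Ccl9*, genes of ligands of CCR1, were called higher in TAMs in WT and GABA-treated mice, and *Cxcl11* in GABA-treated mice, the last not by DESeq2. Over the 14 ligands tested the counts called higher and lower in TAMs were 10 and 3 in WT, 8 and 2 in *muMt*-/- and 11 and 3 in GABA-treated mice, against 1420 and 508, 1156 and 654, and 1197 and 672 of all 8477 genes tested. Within CD8+ cells 0 of 10 ligands tested were called by edgeR or by DESeq2 in any comparison, with 2, 2 and 0 at an unadjusted p under 0.05, and the medians were 0.41, -0.16 and 0.33.

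Of the signalling and desensitization genes of the receptors, 27 in all, both edgeR and DESeq2 called 0 of 25 tested in TAMs, with 4, 1 and 1 at an unadjusted p under 0.05 in *muMt*-/- against WT, GABA-treated against *muMt*-/- and GABA-treated against WT, and 0 of 22 in CD8+ cells, where no gene at all passed in edgeR, with 3, 0 and 4. Medians lay between -0.06 and -0.02 in TAMs and between 0.03 and 0.28 in CD8+ cells. The most abundant in TAMs were *Arpc2* and *Gnai2*. *Arpc2*, an actin nucleator subunit, had 332 ± 32.6 normalized molecules in WT and 412 ± 70.4 in *muMt*-/- mice (0.27, adjusted p = 0.449). *Gnai2*, an inhibitory G protein subunit used by the receptors that signal through G proteins, had 200 ± 20.8 and 293 ± 58.5 (0.52, adjusted p = 0.0756). Between the cell types 8 were higher and 3 lower in TAMs of WT mice, 6 and 4 in *muMt*-/- mice and 7 and 5 in GABA-treated mice, of 25 tested (22.7%, 21.4% and 22.0% of all genes were called). *Gnai2*, *Arrb2*, *Rgs2* and *Arpc2* were called higher in TAMs in all 3 groups, and *Grk6*, *Rgs16* and *Rac2* lower. *Rgs16*, which shortens G protein signals, differed most in WT mice, with 0.277 ± 0.221 molecules per 100000 in TAMs and 45.4 ± 25.4 in CD8+ cells (adjusted p = 9.94e-14). In WT and GABA-treated mice *Rhoa* and *Cdc42* were also called higher in TAMs. *Gnb1* and *Gnb2* were called in WT mice, the first not by DESeq2. *Rgs1* was called higher and *Coro1a* lower in TAMs of *muMt*-/- and of GABA-treated mice, *Pik3cg* higher in *muMt*-/- mice, and *Dock2* lower in GABA-treated mice. DESeq2 also called *Coro1a* and *Dock2* in WT mice and *Cdc42* in *muMt*-/- mice. Calls in some groups and not in others are no test of a difference between groups, and edgeR called 0 of these genes in that test.

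The other 18 genes of a list of 25 chemokine receptors and their relatives had few or no molecules in most cases. Counting the 7, 9 of the 25 passed the filter in TAMs and 10 in CD8+ cells, and 5 had no molecule in each cell type. Of the 18, edgeR and DESeq2 each called 0 between the groups of either cell type, with 2, 1 and 1 of 4 tested at an unadjusted p under 0.05 within TAMs and 1, 0 and 0 of 3 within CD8+ cells in the same order of comparisons. Between the cell types *Cmklr1*, the signalling receptor for chemerin, was called higher in TAMs in each group, with 8.79 ± 3.09 molecules per 100000 in WT TAMs and 0.217 ± 0.531 in WT CD8+ cells, and *Ccr7*, the receptor of naive T cells for lymph node chemokines, was called lower in each group, with 0.066 ± 0.161 and 31.3 ± 13.5. Molecules of *Ccr7* and of *Cxcr6* were counted in all 18 CD8+ libraries. Which cells of a pool carried them, and in what state, was not tested.

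Genes with the most similar pattern were sought for each receptor over the 18 libraries of the cell type with its higher mean number after normalization over all 36 libraries together, among 5309 genes in TAMs and 1882 or 1883 in CD8+ cells. The 18 libraries come from 3 groups and differ in depth, so these correlations are a description only. The study used mice of both sexes, and the part of sex in these correlations was not tested. For *Ccr2* in TAMs they were *Laptm5* (Pearson r 0.92, Spearman rho 0.88), *Gm20594* (0.92 and 0.95) and *Bach1* (0.90 and 0.78). For *Ccr1* in TAMs they were *Cd274* (0.83 and 0.82), *Dusp1* (0.83 and 0.80) and *Tgm2* (0.81 and 0.81). For *Cx3cr1* in TAMs they were *Gmnn* (0.78 and 0.68), *Hnrnpa2b1* (0.76 and 0.78) and *Nup205* (0.76 and 0.73). For *Ccrl2* in TAMs they were *Id2* (0.79 and 0.79), *Diaph1* (0.74 and 0.62) and the chemokine gene *Cxcl2* (0.74 and 0.85). For *Cxcr6* in CD8+ cells they were *Ctla4* (0.79 and 0.74), *Fam107b* (0.76 and 0.53) and *Il2rb* (0.73 and 0.19), the last with little left by rank. *Cxcr4* in CD8+ cells came with *Rbx1* (0.70 and 0.64), *Dtx3l* (0.69 and 0.69) and *Ddx3y* (0.68 and 0.63), and *Cxcr3* with *Nek7* (0.69 and 0.65), *Eif3i* (0.68 and 0.66) and *Dgka* (0.63 and 0.60).

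By position, 5 of the 7 genes lie on chromosome 9 of the mouse genome (RefSeq annotation of GRCm38.p6, the assembly also called mm10). *Cxcr6* (chr9:123806477-123811754, plus strand), *Ccr1* (chr9:123962126-123968692, minus strand) and *Ccr2* (chr9:124101918-124109140, plus strand) form part of a receptor cluster, with 150 kb between *Cxcr6* and *Ccr1* and 133 kb between *Ccr1* and *Ccr2*. *Ccrl2* (chr9:111054834-111057518) and *Cx3cr1* (chr9:120048683-120068296), both on the minus strand, are farther off on the same chromosome. *Cxcr4* is at chr1:128588199-128592299 and *Cxcr3* at chrX:101731535-101734147, both on the minus strand. Across cell types *Ccr1* and *Ccr2* were both higher in TAMs, and *Cxcr6* was higher in CD8+ cells. Sequence at the ends of the transcripts sets the genes apart: of all 50-base windows in the last 500 bases, 0 were shared with another gene for 6 of the 7, and 12 of 902 (1.33%) for *Cx3cr1*.

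Promoters are printed for the 3 neighbours on chromosome 9, of which 2 were higher in TAMs and 1 in CD8+ cells, and for *Cxcr3*, the other receptor that was higher in CD8+ cells. RefSeq promoter windows were found for 7 of 7 receptors, 9 windows in all. Each window is the 250 bases before a transcript start in GRCm38.p6, read 5′ to 3′ on the gene's strand. The window of *Ccr2* and 2 of the 3 windows of *Ccrl2* lie in whole or in part inside the gene positions given above, before a transcript start within them. They were searched on both strands for GAGGAAGT, a sequence bound by the myeloid and lymphoid factor PU.1, for TGTGGTT, bound by RUNX factors, and for the TATA box TATAAA, which overlap with each other nowhere in these windows. Of all 32851 promoters of this length 2.44%, 4.40% and 12.4% hold them. Capitals mark a match. *Cxcr3* holds the first, on the opposite strand, *Cxcr4* holds the third on both strands in 2 overlapping matches, and the windows of the other 5 hold none of the 3. A match describes letters in this window and is not a binding site.
*Cxcr6* promoter, chr9:123806227-123806476, plus strand: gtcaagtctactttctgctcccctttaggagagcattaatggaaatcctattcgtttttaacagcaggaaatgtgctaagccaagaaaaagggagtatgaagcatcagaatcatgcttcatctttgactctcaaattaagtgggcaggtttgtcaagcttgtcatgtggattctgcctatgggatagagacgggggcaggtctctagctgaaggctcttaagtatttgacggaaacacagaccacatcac
*Ccr1* promoter, chr9:123968693-123968942, minus strand: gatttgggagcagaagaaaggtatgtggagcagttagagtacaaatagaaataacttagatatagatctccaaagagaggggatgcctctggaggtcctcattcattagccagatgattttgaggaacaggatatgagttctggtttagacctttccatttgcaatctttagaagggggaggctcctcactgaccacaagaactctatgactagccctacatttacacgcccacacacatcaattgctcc
*Ccr2* promoter, chr9:124101933-124102182, plus strand: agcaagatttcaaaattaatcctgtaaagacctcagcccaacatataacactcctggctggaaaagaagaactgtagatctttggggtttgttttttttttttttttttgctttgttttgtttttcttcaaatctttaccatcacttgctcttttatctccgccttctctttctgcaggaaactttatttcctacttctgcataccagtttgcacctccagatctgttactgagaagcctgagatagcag
*Cxcr3* promoter, chrX:101734148-101734397, minus strand: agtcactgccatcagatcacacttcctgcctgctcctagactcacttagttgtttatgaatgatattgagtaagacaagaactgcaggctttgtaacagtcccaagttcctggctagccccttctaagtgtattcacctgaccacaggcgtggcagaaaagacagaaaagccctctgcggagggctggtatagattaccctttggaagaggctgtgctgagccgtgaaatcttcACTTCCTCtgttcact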

How the data were processed

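The authors mapped reads with STAR to mm10 and deposited a count of barcoded molecules per gene and library, without normalization, and those counts were used as deposited. Normalized numbers are counts divided by DESeq2 1.42.0 size factors. Genes with a mean above 1 were tested with edgeR 4.0.16 (quasi-likelihood F-test, TMM, 1 coefficient per group) in 1 fit per cell type (18 libraries) and 1 fit to all 36, with Benjamini-Hochberg adjustment over all genes tested. Standard errors are the size of the log2 fold change over the square root of F, and 95% intervals use the t distribution. Groups follow the labels. Further versions were matplotlib 3.10.9, scipy 1.17.1, pandas 2.3.3, numpy 2.4.6, Python 3.11.15 and R 4.3.3. The procedure was tested on simulated data. The 7 receptors and all lists (macrophage, T cell, B cell, neutrophil, NK cell, dendritic cell, monocyte, tumour and stroma markers, nuclear RNA, ligands, signalling genes, receptor family) were chosen with earlier results of these data known. Genes named are the 7 receptors, list genes that passed the threshold or else the 2 to 4 most abundant, and for each receptor the 3 genes with the highest Pearson r of log2(normalized number + 1), among genes with a mean of at least 5. Other list genes are named for their values. Alternatives were DESeq2's size factors, total molecules, DESeq2's Wald test with adjusted and unadjusted p (the study's criterion), no filter, a replicate block, only the libraries compared, leaving out each library, and, chosen after seeing the data, leaving out 3 CD8+ libraries.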

Additional observations from a re-analysis of the deposited data

Results flagged for a closer look

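In each group of 6 libraries the highest or lowest value was marked when its gap to the next value was a larger share of the whole range than Dixon's test allows at the 95% level. For normal and independent values chance marks about 1 in 20 groups this way. Of 37 receptor and group pairs with enough values, 9 were marked. Many of these values are low counts, and several marks fell on the same library, so this number cannot be read against that rate. Values are normalized numbers of molecules.

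In CD8+ cells of *muMt*-/- mice, replicate 1 stood apart in 4 receptors. It had 34.4 of *Ccr1* (2.24 to 8.996 in the other 5), 52.6 of *Ccr2* (3.81 to 11.2) and 28.3 of *Ccrl2* (0.743 to 4.09), and 3.03 of *Cxcr6* (22.4 to 26.8). It also had the largest sum of macrophage markers, 518 molecules per 100000, and the smallest sum of T cell markers, 228. Its sums of neutrophil markers, 29.9 (1.54 to 9.09 in the others of its group), and of nuclear RNA, 573 (206 to 365), were the largest as well. Their part in these values was not tested. In the same group *Cx3cr1* was high in replicate 4, at 8.97 (1.67 to 2.97 in the others).

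*Ccr2* in replicate 4 of *muMt*-/- TAMs had 477 (168 to 281 in the others). This library also had the most nuclear RNA, 1047 molecules per 100000, and the part of nuclear RNA in it was not tested. In WT TAMs *Ccrl2* was high in replicate 5, at 47.7 (23.3 to 32.3 in the others), and all molecules of *Cxcr6* were in replicate 3, at 4.74 against 0 in the other 5. In CD8+ cells of WT mice, *Ccr1* had 9.15 in replicate 5 (0 to 2.21 in the others), the library with the largest macrophage marker sum of its group, 147 molecules per 100000.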

How the results depend on the processing

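For the receptors, 505 log2 fold changes under alternatives other than leaving out 1 library kept their direction and their side of the threshold, 34 came to pass the threshold, 3 came to miss it and 11 changed direction. In fits without 1 library these numbers were 965, 10, 14 and 31.

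In *muMt*-/- against WT TAMs, 1 receptor was called, and 2 were called with DESeq2's size factors or DESeq2's adjusted test (*Ccr1* and *Ccr2*), 4 under the study's criterion, 3 without a filter (*Ccr2*, *Cx3cr1* and *Cxcr4*) and 3 with only the libraries compared (*Ccr1*, *Ccr2* and *Cx3cr1*). Fits without 1 library called 0 to 2: 0 without replicate 4 of *muMt*-/- mice, and 2 without replicate 5 of WT or replicate 1 or 6 of *muMt*-/- mice. Over all genes the count of 194 became 69 without replicate 4 of *muMt*-/- mice, 86 and 119 without replicates 1 and 6 of WT mice, 1111 under the study's criterion, 343 without a filter and 324 with only the libraries compared. In GABA-treated against *muMt*-/- TAMs, 0 became 3 under the study's criterion and 1 (*Ccr2*, adjusted p = 0.0423) without a filter, and 1 (*Ccr2*) without replicate 1 of GABA-treated mice. Against WT TAMs 0 became 2 under the study's criterion. Over all genes the study's criterion and no filter gave 580 and 51 in place of 2, and 440 and 63 in place of 7. The 2 became 7 with total molecules or DESeq2's adjusted test and 4 with the replicate block, and the 7 became 3 with DESeq2's adjusted test or only the libraries compared. The 2 also became 35 without replicate 1 and 5 without replicate 2 of GABA-treated mice, and 5 and 12 without replicates 2 and 5 of *muMt*-/- mice. The 7 became 2 or 3 without replicate 1, 2, 3, 4 or 6 of WT or replicate 1, 2 or 3 of GABA-treated mice.

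In CD8+ cells the study's criterion called 1 receptor (*Ccrl2*) in *muMt*-/- and 2 (*Ccr2* and *Cx3cr1*) in GABA-treated mice, each against WT, and no filter called 2 in each (*Ccr1* and *Ccr2*), in place of 0. Over all genes the study's criterion called 222, 133 and 222 in the 3 comparisons, no filter 72, 11 and 64, and every other alternative at most 13 (without replicate 5 of WT mice). The tests of the difference between cell types had 2 (*Cx3cr1* and *Cxcr4*) and 1 (*Cxcr4*) called under the study's criterion and 0 under all others. Between TAMs and CD8+ cells 4 to 7 receptors were called in every group and alternative. Over all genes 1 gene responded differently in the cell types in *muMt*-/- against WT mice. This became 79 without a filter, 14 with only the libraries compared, 4 without the 3 CD8+ libraries, 2 with the replicate block, 600 under the study's criterion, 0 with DESeq2's size factors, total molecules or DESeq2's adjusted test, and 9 without CD8+ replicate 5 of WT mice. In GABA-treated against *muMt*-/- mice 0 became 17 without a filter, 361 under the study's criterion and 3 without the 3 CD8+ libraries. Fits without 1 library gave at most 2 there. Why the filter changed these counts was not tested.

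Directions changed as follows. *Cxcr6* in CD8+ cells of *muMt*-/- against WT mice had a log2 fold change of -0.0253 with DESeq2's size factors, -0.0269 with total molecules and -0.0264 with DESeq2 (adjusted or unadjusted). Without the 3 CD8+ libraries with most macrophage RNA, *Ccrl2* was 0.088 and *Cxcr3* -0.29 in GABA-treated against *muMt*-/- CD8+ cells, and among the differences between cell types *Ccr2* was 0.34 (*muMt*-/- against WT) and *Ccrl2* -0.60 (GABA-treated against *muMt*-/-). *Cxcr6* was -0.13 in the latter with DESeq2, adjusted or not.

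Without 1 library, *Ccrl2* in GABA-treated against WT TAMs ranged from -0.25 to 0.066. In CD8+ cells *Cxcr6* ranged from -0.060 to 0.44 in *muMt*-/- and from -0.32 to 0.18 in GABA-treated mice, each against WT. In GABA-treated against *muMt*-/- CD8+ cells *Ccr1* ranged from -0.44 to 0.91, *Ccr2* from -0.19 to 1.196, *Ccrl2* from -1.44 to 0.50 and *Cxcr3* from -0.18 to 0.67. The highest values of *Ccr1*, *Ccr2* and *Ccrl2* were those without replicate 1 of *muMt*-/- mice. Among the differences between cell types for *muMt*-/- against WT, *Ccr2* ranged from -1.17 to 0.34, *Cxcr3* from -0.62 to 1.08 and *Cxcr6* from -2.56 to 0.98, and for GABA-treated against *muMt*-/- *Ccr1* from -1.20 to 0.19, *Ccrl2* from -1.01 to 0.95, *Cx3cr1* from -0.76 to 0.071 and *Cxcr6* from -0.85 to 1.17. None of these was called. Why they changed sign was not tested.

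Pairing by replicate number was checked. Correlations between the deviations of same-number libraries ran from -0.18 to 0.28, with medians from -0.040 to 0.076 over the pairs of groups. This check could not show a mouse shared under different numbers. The labels do not pair TAM with CD8+ libraries, and the tests between the cell types took all libraries as unpaired. With the replicate block the same numbers of receptors were called in all comparisons, and *Ccr1* was 0.034 in GABA-treated against *muMt*-/- CD8+ cells.

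The scale mattered between the cell types. The median log2 fold change of all genes, TAMs over CD8+ cells in WT mice, was 0.36 with TMM, 0.20 with DESeq2's size factors and 0.04 with total molecules, and in *muMt*-/- mice it was 0.10 with TMM and -0.13 with total molecules. Genes called higher and lower in TAMs were 1420 and 508 in WT, 1156 and 654 in *muMt*-/- and 1197 and 672 in GABA-treated mice with TMM, and 968 and 760, 832 and 966, and 1005 and 851 with total molecules. In CD8+ cells of GABA-treated against WT mice the median moved from 0.21 with TMM to 0.06 with DESeq2's size factors. For the difference between cell types in *muMt*-/- against WT it moved from -0.30 to -0.11 in the same way.

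Depth limits the CD8+ results. With 0 to 6 molecules of *Cxcr3* per library, and 6 to 10 molecules of *Ccr1*, *Ccrl2* and *Cx3cr1* in all 6 WT libraries together, only large differences are detectable. Each library pools 100 cells, so a receptor in a few cells cannot be told from a low level in all, and the groups differ in depth.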
